A study of Oryctolagus cuniculus with 6 samples.

Results

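The 42 collagen chain genes described here are the rows whose symbol reads COL, a number, A and a number, out of 17396 gene rows in the count table. They were grouped by the kind of collagen their chains build, which gave 11 fibrillar chains (types I, II, III, V, XI, XXIV and XXVII), 7 basement membrane chains (types IV and XV), 5 chains of type VI, 9 FACIT chains (fibril-associated collagens with interrupted triple helices, types IX, XII, XIV, XVI, XIX, XXI and XXII) and 10 other chains. RNA was sequenced from injured facial nerve of wild-type male Japanese white rabbits aged 3 to 4 months. In all 6 rabbits the main trunk of the nerve was cut behind the stylomastoid foramen and the wound closed, and tissue was taken at day 14. The FNI group (facial nerve injury, 3 rabbits) had the cut alone, and the FNI+I-125 group (3 rabbits) also had an iodine-125 brachytherapy seed of 0.8 mCi placed near the nerve. The comparison asks how an implanted seed altered the injured nerve. Neither group had a seed without radioactivity, so radiation and the implant itself cannot be told apart. The uninjured nerve was not analysed here, so no value below is a change from normal nerve.

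Collagens are triple helices of 3 chains that fold in the endoplasmic reticulum, are secreted, trimmed and crosslinked, and then assemble outside the cell. Types I, III and V make the fibrils of the sheaths around and within nerve trunks, FACIT collagens sit on the surface of such fibrils, type VI forms beaded microfibrils, and type IV forms the sheet under Schwann cells, perineurial cells and blood vessels. Collagen laid down at a nerve injury is part of the scar that regrowing axons meet.

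The libraries held 16031151 to 16798012 gene counts. Levels are given as CPM, a gene's counts per 1000000 counts of its library after trimmed mean of M values scaling, in the order replicate 1, 2 and 3, and differences as the log2 fold change of FNI+I-125 over FNI with its standard error. CPM takes no account of transcript length, so levels are compared between libraries and not between genes. Tissue markers differed widely between libraries: the 11 skeletal muscle markers found summed to 23.6 to 80.2 CPM in FNI and to 5113, 4393 and 14.7 CPM in FNI+I-125, the 8 salivary gland markers to 2957, 50012 and 296 CPM in FNI and to 64.0 to 702 CPM in FNI+I-125, and the 10 Schwann cell markers to 7087, 4059 and 33091 CPM against 721, 3648 and 1815 CPM. All 10 Schwann cell markers were above 0 in every library. MYH4 and MYBPC2 of the muscle markers and LPO and ELF5 of the gland markers were at 0 in at least 1 library. In tissue RNA, fewer cells of a type and less RNA per cell cannot be told apart.

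Collagen chains took a large part of all counts in every library. They made up 15.8%, 12.1% and 8.37% of the counts in FNI and 20.5%, 13.03% and 12.3% in FNI+I-125, with means of 12.1% ± 3.70 and 15.3% ± 4.55 (SD, n = 3 each). The 95% Wilson interval of each library's share reached at most 0.0194 percentage points to either side, for counting error only. The groups overlapped, and the difference of 0.37 on the log2 CPM scale was below the SDs of 0.49 and 0.50 within the groups. COL1A1, COL1A2 and COL3A1 together held 85.4%, 83.2% and 80.1% of the collagen counts in FNI and 82.1%, 83.9% and 80.3% in FNI+I-125, and these ranges overlapped too. All 42 chains had at least 1 count in every library except COL9A1, which had none in FNI+I-125 replicate 2. In that library 0 of 16511289 counts allows a level of up to 0.182 CPM, by counting error only.

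**Figure D1:**
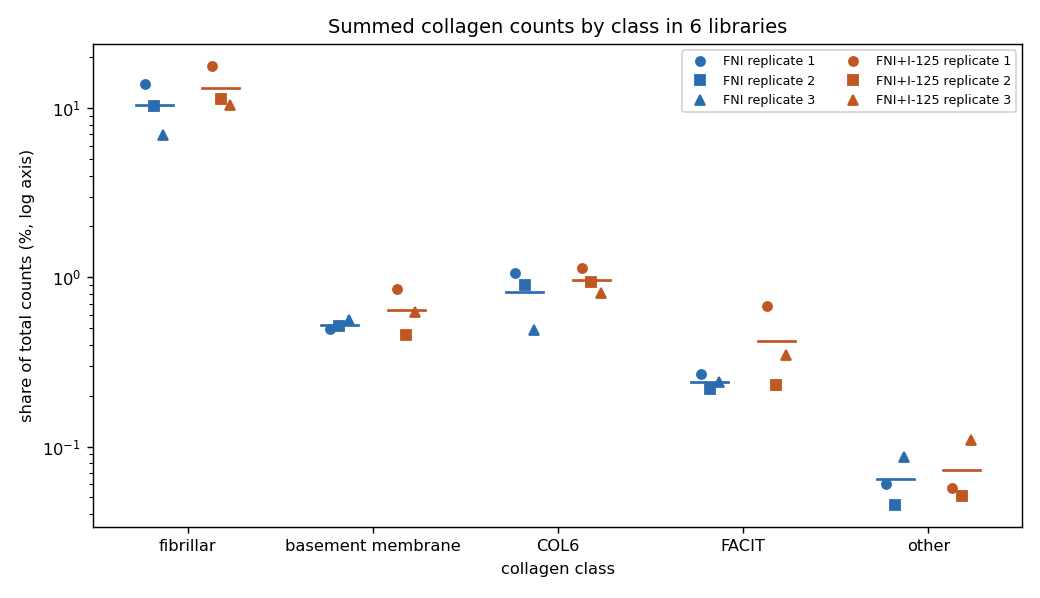
Share of each library's counts (percent, vertical log axis) taken by the 5 collagen classes, with 1 point for each library, and the mean of each group marked by a bar. The fibrillar class ran from 6.99% to 13.9% in FNI and from 10.4% to 17.8% in FNI+I-125, and the groups overlapped in all 5 classes.

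No collagen chain passed the test of the 2 groups. Of the 42 chains, 40 passed the filter on low counts (COL9A1 and COL19A1 did not) and 0 had an adjusted p under 0.05 with a log2 fold change of 1.5 or more in either direction by edgeR's quasi-likelihood test. Over all 14003 genes tested the calls were 0 higher and 0 lower, or 0% each, and the smallest adjusted p was 0.141. At an unadjusted p under 0.05, 3 chains were higher in FNI+I-125 (COL12A1, COL11A1 and COL5A3) and 4 were lower (COL21A1, COL4A3, COL4A4 and COL9A2), where 9.23% of all genes tested were higher and 7.73% lower at that p. These 7 chains are 17.5% of the 40, against 17.0% of all genes, a share near that background. With the fold threshold kept at that p, COL12A1 and COL11A1 were higher, where 2.77% of all genes were, and COL9A2 was lower, where 2.19% of all genes were. The edgeR adjusted p with Benjamini-Hochberg adjustment was 0.280 for 6 of the 7 and 0.286 for COL9A2.

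By DESeq2 with the same filter, 2 chains passed the same call in the higher direction and 0 in the lower, where 1.69% of all genes tested were called higher and 1.16% lower. They were COL12A1 (log2 fold change 2.92, DESeq2 adjusted p = 0.00842) and COL11A1 (1.62, DESeq2 adjusted p = 0.0444). COL21A1 had a DESeq2 adjusted p of 0.0201 with a log2 fold change of -1.15, short of the fold threshold. With 1 library left out, COL11A1 kept its DESeq2 call only without FNI+I-125 replicate 2. COL12A1 lost its call without FNI replicate 1, FNI replicate 3 or FNI+I-125 replicate 1. By limma-voom 0 chains were called in either direction, so the calls depended on the tool.

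The median log2 fold change of the 40 chains was 0.22, against 0.01 over all genes tested, and 24 chains (60%) were above 0, where 51.1% of all genes were. Without FNI+I-125 replicate 1 the median of the chains was 0.014, and over the 6 libraries left out in turn it ran up to 0.33. In 8 chains the 3 libraries of 1 group all lay outside the range of the other group, 3 higher in FNI+I-125 (COL12A1, COL5A2 and COL5A3) and 5 lower (COL21A1, COL4A3, COL4A4, COL9A2 and COL9A3). That is 20% of the chains, and 27.2% of all genes tested did the same (14.8% higher and 12.3% lower). The higher set depended on the scaling: by upper-quartile scaling COL5A2 overlapped, and by library size only COL6A3 was also without overlap. With 3 libraries against 3, an exact two-sided permutation test of log2(CPM + 1) cannot go below p = 0.1, the value that each of these 8 chains reached.

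**Figure D2:**
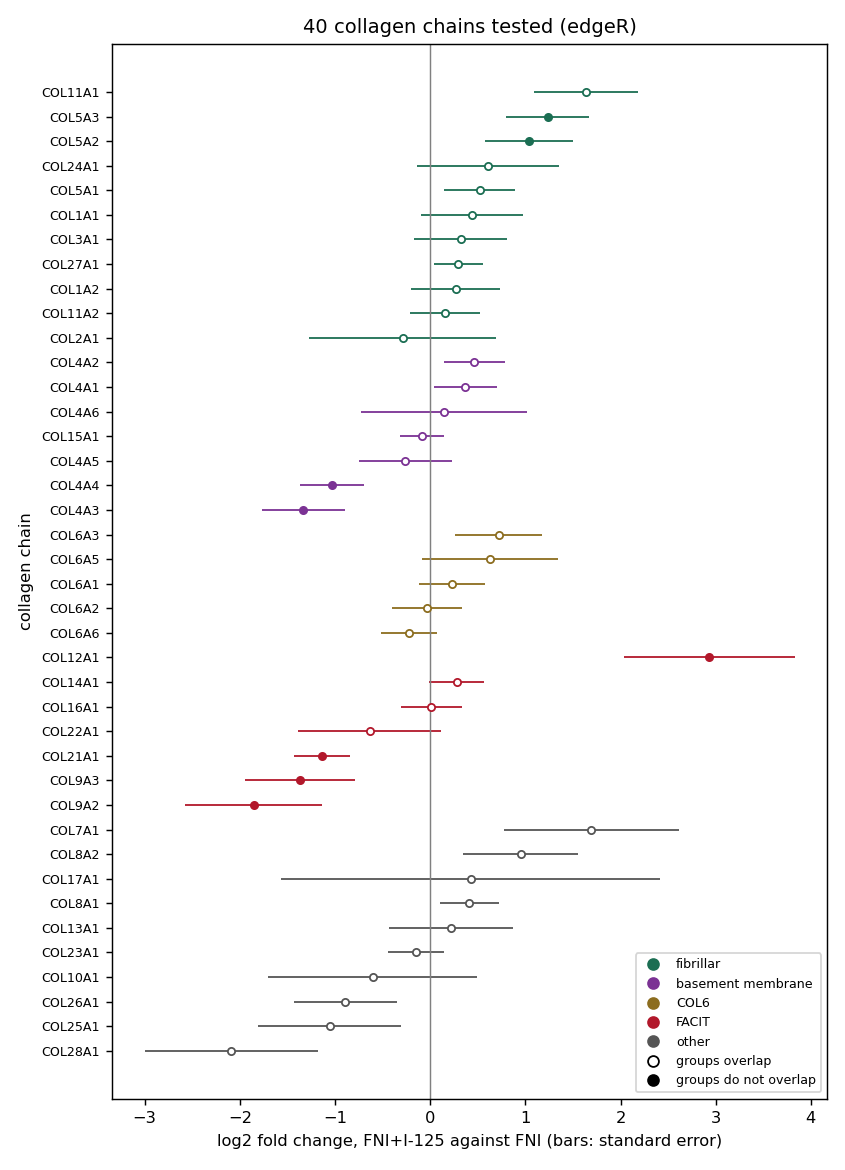
Log2 fold change of FNI+I-125 over FNI (horizontal axis) with bars of 1 standard error for each of the 40 chains tested, coloured by class. COL12A1 was highest at 2.93 ± 0.90 and COL28A1 lowest at -2.09 ± 0.91, and the filled points are the 8 chains whose groups did not overlap.

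Of the 11 fibrillar chains, 10 had a log2 fold change above 0, from 0.15 to 1.63, and the class took 13.9%, 10.4% and 6.99% of counts in FNI and 17.8%, 11.3% and 10.4% in FNI+I-125. COL1A1, one of the chains of type I collagen, the main fibril of tendon, skin and scar, stood at 53726, 40705 and 23012 CPM in the FNI libraries and 76521, 44670.2 and 37942 CPM in the FNI+I-125 libraries. The ranges overlapped, FNI replicate 3 was lowest and FNI+I-125 replicate 1 highest of the 6, and the log2 fold change was 0.44 ± 0.54. Its partner COL1A2 stood at 35379, 27905 and 18943 CPM in the FNI libraries and 46852, 28279.8 and 23994 CPM in the FNI+I-125 libraries, with the same lowest and highest libraries (0.27 ± 0.47). COL3A1, the single chain of type III collagen, which shares fibrils with type I, stood at 42486, 37562 and 21671 CPM in the FNI libraries and 59247, 36962 and 30882 CPM in the FNI+I-125 libraries (0.32 ± 0.49). None of these differences was larger than its standard error, and without FNI+I-125 replicate 1 the 3 log2 fold changes were 0.08, -0.068 and 0.0015.

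The 3 largest fibrillar log2 fold changes were those of COL11A1, COL5A3 and COL5A2. Type V and XI collagens start fibrils and limit their width. COL5A2, named here after its values were seen, stood at 1750.4, 1632 and 959 CPM in the FNI libraries and 4889, 1842 and 2208 CPM in the FNI+I-125 libraries, and the lowest FNI+I-125 library lay just above the highest FNI library (1.04 ± 0.46, edgeR adjusted p = 0.310). COL5A3 stood at 430.2, 464 and 478 CPM in the FNI libraries and 1832, 600.0 and 797 CPM in the FNI+I-125 libraries. Its 3 FNI libraries were close together, every FNI+I-125 library was above them, and replicate 1 was the farthest (1.23 ± 0.43). COL5A1, the chain that most type V molecules need, stood at 1656, 1236 and 980.2 CPM in the FNI libraries and 2791, 1409.7 and 1354 CPM in the FNI+I-125 libraries, and its groups overlapped (0.52 ± 0.37, or 0.10 without FNI+I-125 replicate 1). COL11A1, a type XI chain of cartilage that also joins fibrils of other tissues, stood at 129, 109 and 140.5 CPM in the FNI libraries and 621, 128 and 426 CPM in the FNI+I-125 libraries. Replicates 1 and 3 of FNI+I-125 were well above FNI, while replicate 2 lay inside the FNI range (1.63 ± 0.55).

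Without FNI+I-125 replicate 1, the log2 fold changes of COL5A2, COL5A3 and COL11A1 were 0.49, 0.61 and 1.13, against 1.04, 1.23 and 1.63 with all libraries. The remaining fibrillar chains were COL27A1 (0.29 ± 0.26), COL24A1 (0.60 ± 0.75), COL11A2 (0.15 ± 0.37) and COL2A1 (-0.29 ± 0.99), all with overlapping groups. COL2A1, the chain of cartilage type II collagen, was read 5 to 59 times per library and stood at 0.327 to 3.49 CPM. The 11 cartilage and bone markers found, led by RUNX2, summed to 131 to 312 CPM in FNI and 108 to 330 CPM in FNI+I-125, with MATN1 and DMP1 at 0 in at least 1 library. This sum joins markers that went opposite ways: of the 8 tested, 6 had log2 fold changes above 0 and 2 below. At an unadjusted edgeR p under 0.05, 2 were higher and 1 lower, where 9.23% of all genes were higher and 7.73% lower.

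The FACIT class held the chain with the largest log2 fold change of all 40. COL12A1, whose chains form type XII collagen, a bridge between fibrils in tissues under mechanical load, stood at 214, 302 and 259 CPM in the FNI libraries and 4274, 321 and 1327 CPM in the FNI+I-125 libraries. The FNI libraries were close together, FNI+I-125 replicate 2 lay just above them, and replicates 3 and 1 stood far higher, so the SD of the FNI+I-125 group exceeded its mean (259 ± 43.9 CPM in FNI and 1974 ± 2054 CPM in FNI+I-125, SD, n = 3). The log2 fold change was 2.93 ± 0.90, and 1.67 without FNI+I-125 replicate 1. Among all collagen counts COL12A1 took 0.139%, 0.237% and 0.326% in FNI and 1.92%, 0.245% and 1.15% in FNI+I-125.

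**Figure D3:**
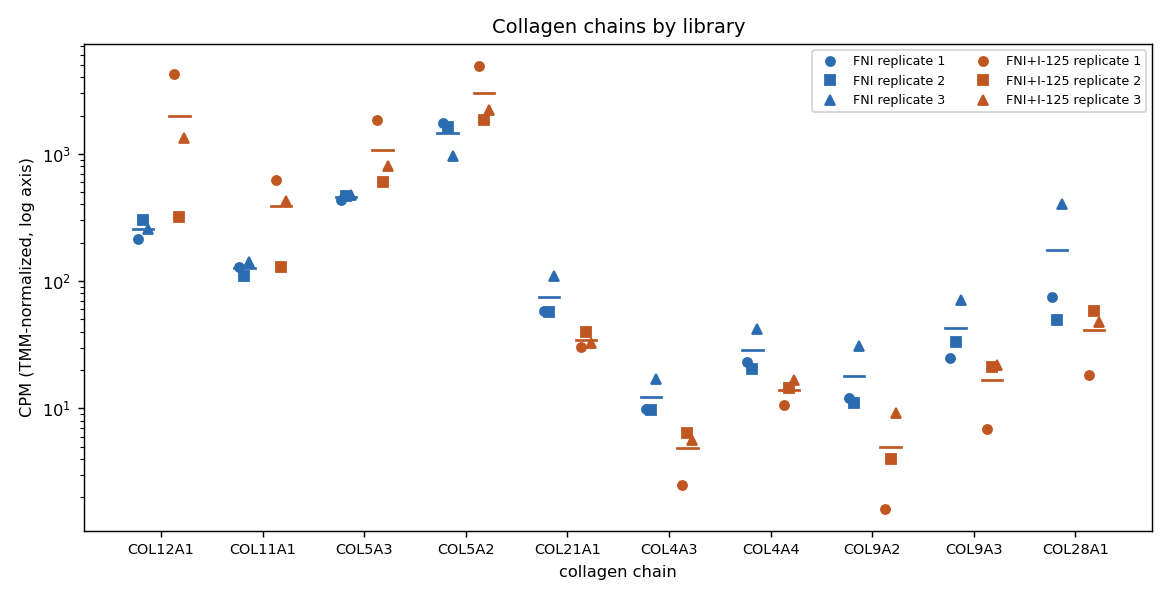
CPM per library (vertical log axis) for COL12A1, COL11A1, COL5A3, COL5A2, COL21A1, COL4A3, COL4A4, COL9A2, COL9A3 and COL28A1, with 1 point for each library. COL12A1 ran from 214 to 302 CPM in FNI and from 321 to 4274 CPM in FNI+I-125, and all COL21A1 libraries of FNI+I-125, at 30.4 to 39.6 CPM, were below the lowest FNI library at 57.1 CPM.

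COL14A1 and COL16A1, the other FACIT chains with most counts, did not separate the groups. Type XIV collagen regulates the packing of fibrils, and COL14A1 stood at 1581, 1316 and 886 CPM in the FNI libraries and 1919, 1322 and 1350.4 CPM in the FNI+I-125 libraries (0.28 ± 0.29). COL16A1 stood at 711, 593 and 915 CPM in the FNI libraries and 1069.6, 624 and 543 CPM in the FNI+I-125 libraries (0.011 ± 0.32), and its sign depended on the scaling used. The class as a whole took 0.267%, 0.219% and 0.241% of counts in FNI and 0.674%, 0.233% and 0.349% in FNI+I-125. The difference was 0.67 on the log2 CPM scale and 0.21 without FNI+I-125 replicate 1.

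Of the FACIT chains with fewer counts, 3 were lower in every FNI+I-125 library than in any FNI library, as were 12.3% of all genes tested. COL21A1, a FACIT chain of blood vessel walls, stood at 58.4, 57.1 and 110.3 CPM in the FNI libraries and 30.4, 39.6 and 32.5 CPM in the FNI+I-125 libraries, with the FNI+I-125 libraries close together (-1.14 ± 0.30, the smallest unadjusted p of the chains). COL9A2 and COL9A3 encode chains of type IX collagen, which coats type II fibrils in cartilage. COL9A2 stood at 12.01, 11.02 and 30.7 CPM in the FNI libraries and 1.63, 4.02 and 9.16 CPM in the FNI+I-125 libraries (-1.85 ± 0.72). COL9A3, named after its values were seen, stood at 24.8, 33.3 and 71.4 CPM in the FNI libraries and 6.93, 21.3 and 22.01 CPM in the FNI+I-125 libraries (-1.37 ± 0.58, edgeR adjusted p = 0.301). In COL21A1, COL9A2 and COL9A3 alike, FNI replicate 3 was the highest of the 6 libraries, and FNI+I-125 replicate 1 the lowest.

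The third type IX chain, COL9A1, had 8, 57 and 1 counts in FNI and 6, 0 and 1 counts in FNI+I-125 and was not tested. COL19A1 had 6, 31 and 1 counts against 2, 7 and 25 counts and was not tested either, and COL22A1, a chain of tissue junctions such as that of muscle and tendon, overlapped between the groups (-0.64 ± 0.75). The sum of the Schwann cell markers was also highest in FNI replicate 3 and lowest in FNI+I-125 replicate 1, with 10 of 10 at a log2 fold change under 0 and a median of -1.003, and their part in the values of COL21A1, COL9A2, COL9A3 and, below, COL4A3 and COL4A4 was not tested. The same holds for the 4 perineurial markers found, led by ITGB4, which summed to 1059, 652 and 2570 CPM against 254, 616 and 701 CPM.

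Basement membrane chains fell into a pair with many counts that overlapped between the groups and a pair with few counts that did not. COL4A1 and COL4A2 build the type IV network found under nearly all epithelia, vessels and Schwann cells. COL4A1 stood at 2618, 2929 and 2739.6 CPM in the FNI libraries and 5164, 2416 and 3120.2 CPM in the FNI+I-125 libraries (0.37 ± 0.33) and COL4A2 at 1551, 1770.1 and 1498 CPM in the FNI libraries and 3181, 1488 and 1972 CPM in the FNI+I-125 libraries (0.46 ± 0.32). In both, FNI+I-125 replicate 1 was the highest of all 6 libraries and replicate 2 the lowest, and without replicate 1 the log2 fold changes were 0.0039 and 0.11. COL15A1, a chain that anchors basement membranes to the matrix below, stood at 634, 711 and 1019 CPM in the FNI libraries and 851, 662 and 715 CPM in the FNI+I-125 libraries, with FNI replicate 3 highest (-0.085 ± 0.23). The endothelial markers, 6 of them led by VWF, summed to 2281 to 2779 CPM in FNI and 1711 to 2837 CPM in FNI+I-125, and the 6 mural cell markers, led by ACTA2, to 2817 to 3159 CPM and 2388 to 4594 CPM. Singly, 5 endothelial markers had log2 fold changes below 0 and 1 above, and 4 mural cell markers were above 0 and 2 below. Without overlap, 2 endothelial markers and 1 mural cell marker were lower and 0 of either list higher, where 12.3% of all genes were lower and 14.8% higher.

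COL4A3 and COL4A4 join COL4A5 in the type IV network best known from the kidney filter. COL4A3 stood at 9.96, 9.70 and 17.1 CPM in the FNI libraries and 2.48, 6.39 and 5.69 CPM in the FNI+I-125 libraries (-1.33 ± 0.43). COL4A4 stood at 23.02, 20.3 and 42.4 CPM in the FNI libraries and 10.7, 14.5 and 16.8 CPM in the FNI+I-125 libraries (-1.03 ± 0.34, or -0.65 without FNI replicate 3). All 3 FNI+I-125 libraries were below all FNI libraries for each gene, FNI replicate 3 was highest and FNI+I-125 replicate 1 lowest, and the separation for COL4A4 was 16.8 against 20.3 CPM at its nearest. The 2 genes overlap in the rabbit RefSeq gene table, and whether the counting used strand was not given, so reads of one may have been counted for the other. Their partner COL4A5 stood at 21.7, 22.05 and 13.7 against 6.41, 16.9 and 24.6 CPM (-0.26 ± 0.49), and COL4A6 at 11.9, 9.58 and 2.48 against 1.63, 9.80 and 14.97 CPM (0.14 ± 0.87), both with overlapping groups. The class took 0.498%, 0.517% and 0.562% of counts in FNI and 0.850%, 0.459% and 0.624% in FNI+I-125, a log2 CPM difference of 0.27 that was -0.0030 without FNI+I-125 replicate 1.

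The 5 type VI chains gave no separation of the groups with the main scaling, while by library size only COL6A3 was higher without overlap. COL6A1, COL6A2 and COL6A3 form the common type VI molecule of the endoneurium and of other connective tissue around cells. COL6A1 stood at 3259.5, 2849 and 1531 CPM in the FNI libraries and 3353, 3237 and 2336 CPM in the FNI+I-125 libraries (0.22 ± 0.35) and COL6A2 at 4414, 4250.3 and 2147 CPM in the FNI libraries and 4366, 3483 and 2714 CPM in the FNI+I-125 libraries (-0.034 ± 0.37). FNI replicate 3 was the lowest of the 6 for both. COL6A3 stood at 2583, 2415 and 946 CPM in the FNI libraries and 4483, 2743 and 2546 CPM in the FNI+I-125 libraries, with FNI+I-125 replicate 1 highest and the other FNI+I-125 libraries near FNI replicates 1 and 2 (0.72 ± 0.46). COL6A5 at 1.82, 3.97 and 1.06 against 6.60, 2.31 and 1.70 CPM (0.63 ± 0.71) and COL6A6 at 58.4, 35.8 and 36.8 against 50.9, 31.4 and 30.2 CPM (-0.22 ± 0.29) also overlapped. The class took 1.06%, 0.903% and 0.491% of counts in FNI and 1.13%, 0.945% and 0.811% in FNI+I-125, a log2 CPM difference of 0.32 that was -0.066 without FNI replicate 3.

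Among the 10 other chains, the widest range between libraries was in genes of nerve and skin. COL28A1, whose type XXVIII collagen is known from peripheral nerve around Schwann cells, stood at 74.7, 49.4 and 404 CPM in the FNI libraries and 18.3, 57.8 and 47.8 CPM in the FNI+I-125 libraries. FNI replicate 3 stood far above every other library, FNI+I-125 replicate 2 lay within the range of the other FNI libraries, and FNI+I-125 replicate 1 was lowest (-2.09 ± 0.91, edgeR adjusted p = 0.306). Without FNI replicate 3 the log2 fold change was -0.60. The sum of the Schwann cell markers was likewise highest in FNI replicate 3 and lowest in FNI+I-125 replicate 1, and the part of Schwann cell content in the COL28A1 values was not tested.

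COL17A1 is the transmembrane chain of the hemidesmosomes that hold epidermal cells, and COL7A1 forms the anchoring fibrils under them. COL17A1 stood at 48.5, 15.5 and 0.118 CPM in the FNI libraries and 0.850, 2.37 and 82.8 CPM in the FNI+I-125 libraries, with FNI+I-125 replicate 3 and FNI replicate 1 highest and FNI replicate 3 at 2 counts (0.43 ± 1.99). COL7A1 stood at 39.00, 28.03 and 8.98 CPM in the FNI libraries and 69.9, 14.3 and 162 CPM in the FNI+I-125 libraries (1.69 ± 0.92). KRT5, a keratin of the basal epidermis and the leading gene of the 7 epidermal markers found, stood at 604, 31.6 and 0.887 CPM in the FNI libraries and 1.57, 0.426 and 948 CPM in the FNI+I-125 libraries, and the 7 summed to 42.02 to 854 CPM in FNI and 20.6 to 1479 CPM in FNI+I-125. KRT1 and DSG3 of these markers were at 0 in at least 1 library. FNI+I-125 replicate 3 was the highest library for KRT5, COL17A1 and COL7A1, while FNI+I-125 replicate 1 had the next highest COL7A1 level with KRT5 at 1.57 CPM, and the part of skin in these collagen values was not tested.

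COL8A1 and COL8A2 form the short-chain network of type VIII collagen, made by vessel walls and corneal cells. COL8A1 stood at 330.1, 295 and 255 CPM in the FNI libraries and 269.6, 326 and 574 CPM in the FNI+I-125 libraries (0.41 ± 0.31, or 0.014 without FNI+I-125 replicate 3) and COL8A2 at 52.9, 44.5 and 129 CPM in the FNI libraries and 235, 62.8 and 138 CPM in the FNI+I-125 libraries (0.95 ± 0.60). FNI+I-125 replicate 3 was highest for COL8A1 and replicate 1 for COL8A2, so the 2 chains did not follow each other. The 5 chains left were COL10A1 of growth cartilage (-0.61 ± 1.10), COL26A1 (-0.89 ± 0.54) and the transmembrane chains COL13A1 (0.21 ± 0.65), COL23A1 (-0.15 ± 0.30) and COL25A1 (-1.06 ± 0.76), all overlapping. The whole class took 0.0452% to 0.0868% of counts in FNI and 0.0508% to 0.110% in FNI+I-125.

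**Figure D4:**
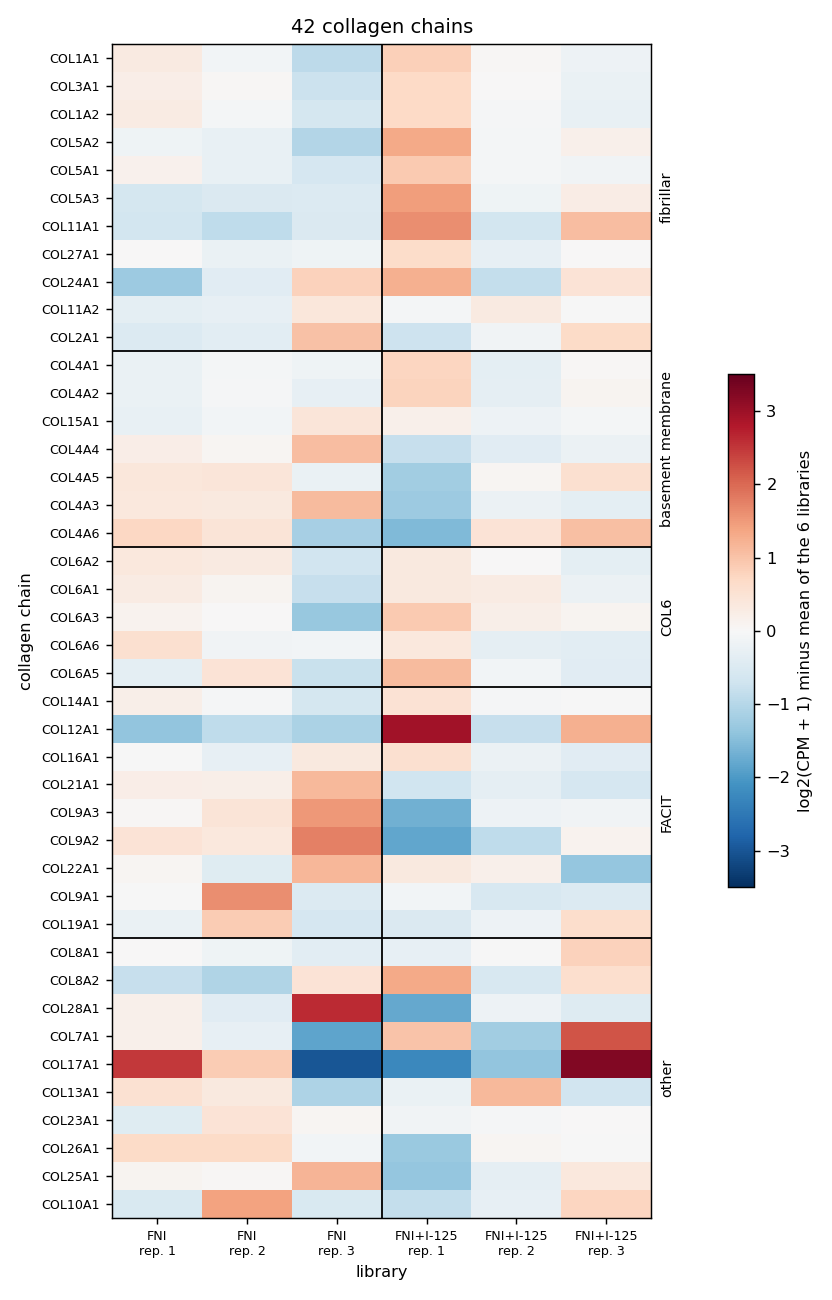
Log2(CPM + 1) of the 42 chains in the 6 libraries, each chain as the difference from its mean over the 6, with chains in rows by class, libraries in columns and colour running from -3.5 to 3.5. FNI+I-125 replicate 1 was above the mean for most fibrillar chains, and COL17A1 and COL12A1 had the widest spread among the libraries of 1 group.

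Ratios of chains that share a molecule or a fibril do not depend on the scaling of libraries, and in 4 of 10 such ratios the groups did not overlap. No like share over other gene pairs was computed, some pairs share a chain, and the ratios were described by their ranges only. The ratio of COL1A1 to COL1A2 counts was 1.52, 1.46 and 1.21 in FNI and 1.63, 1.58 and 1.58 in FNI+I-125, higher in FNI+I-125 by 0.20 on the log2 scale, or by 0.10 without FNI replicate 3. The ratio of COL5A2 to COL1A2 was 0.0495, 0.0585 and 0.0506 in FNI and 0.104, 0.0651 and 0.0920 in FNI+I-125, a log2 difference of 0.70. COL6A1 to COL6A2 stood at 0.738, 0.670 and 0.713 in FNI and 0.768, 0.929 and 0.861 in FNI+I-125 (0.27), and COL4A1 to COL4A2 at 1.69, 1.65 and 1.83 in FNI and 1.62, 1.62 and 1.58 in FNI+I-125 (-0.10). The last pair had the smallest log2 difference of the 4 in size.

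In the other 6 ratios the groups overlapped. COL11A1 to COL5A1 stood at 0.0780, 0.0883 and 0.143 in FNI and 0.223, 0.0908 and 0.314 in FNI+I-125 (0.90) and COL6A3 to COL6A1 at 0.792, 0.848 and 0.618 in FNI and 1.34, 0.847 and 1.09 in FNI+I-125 (0.52). The log2 differences were -0.48 for COL5A1 to COL5A2, -0.42 for COL4A3 to COL4A4, -0.35 for COL4A5 to COL4A6 and -0.13 for COL3A1 to COL1A1. With a library left out, COL4A5 to COL4A6 ran from -0.76 to 0.12, the latter without FNI replicate 3, and COL4A3 to COL4A4 from -0.64 to -0.18. Of the chain genes that are next to each other in the RefSeq gene table, COL5A2 (1.04) and COL3A1 (0.32) both had log2 fold changes above 0, as had COL4A1 (0.37) and COL4A2 (0.46), and COL4A3 (-1.33) and COL4A4 (-1.03) were both below 0. COL6A5 (0.63) and COL6A6 (-0.22) had opposite signs, as had COL6A1 (0.22) and COL6A2 (-0.034), and COL9A1 and COL19A1 were not tested.

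**Figure D5:**
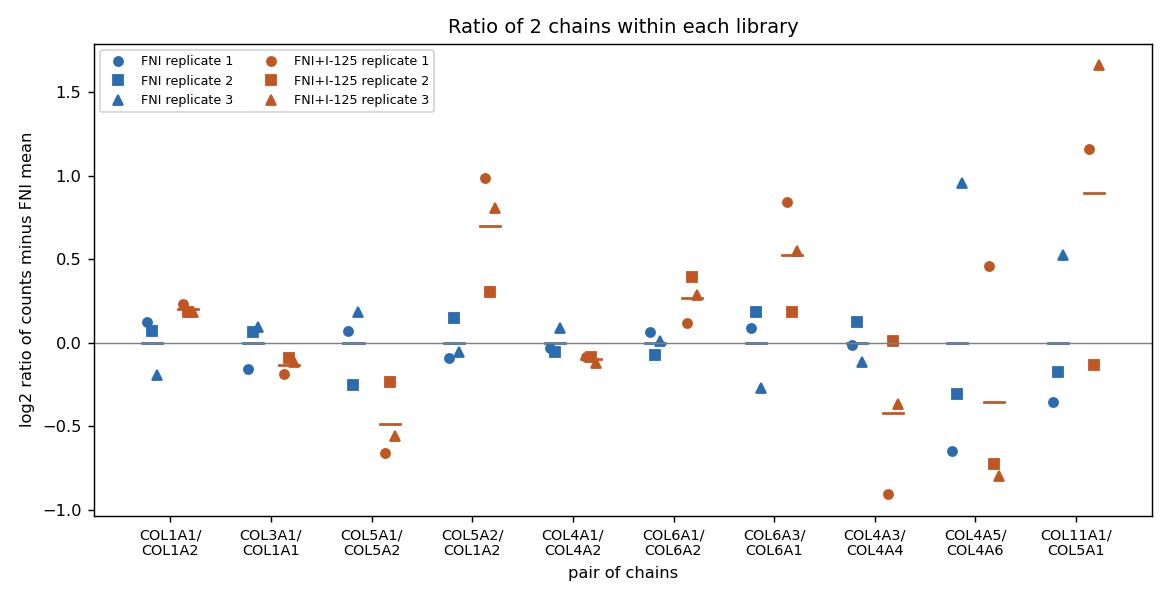
Log2 ratio of counts for 10 pairs of chains (horizontal axis) minus the mean of the FNI libraries (vertical axis), with 1 point for each library and a bar at each group's mean. COL1A1 to COL1A2 ran from 1.21 to 1.52 as a plain ratio in FNI and from 1.58 to 1.63 in FNI+I-125.

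Genes that fold, export, crosslink, bind and cut collagen were taken as 7 lists, and 0 genes of any list passed the edgeR call. Of 17 genes for folding and modification in the endoplasmic reticulum, 15 had a log2 fold change above 0 with a median of 0.45, and 4 were higher and 1 lower at an unadjusted p under 0.05. Over all genes tested 51.1% were above 0, and 9.23% were higher and 7.73% lower at that p, the shares against which the counts of each list stand. PLOD2, which hydroxylates the lysines used for crosslinks, stood at 42.3, 49.5 and 32.03 CPM in the FNI libraries and 175, 41.6 and 101 CPM in the FNI+I-125 libraries (1.36 ± 0.51), with FNI+I-125 replicate 2 inside the FNI range, and its log2 fold change was 0.79 without FNI+I-125 replicate 1. CRTAP, a part of the prolyl 3-hydroxylase complex, was at 0.36 ± 0.12, COLGALT2, a collagen galactosyltransferase, at -1.36 ± 0.43 and P3H2, a prolyl 3-hydroxylase, at -1.19 ± 0.50, or -0.41 without FNI replicate 3.

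Of 7 genes in the collagen secretion list, which is not limited to procollagen export proteins, none in either direction had an unadjusted edgeR p under 0.05. The median of the list was 0.16. The coat proteins SEC23A (0.59 ± 0.29) and SEC24D (0.53 ± 0.30) and the adaptor KLHL12 (-0.22 ± 0.15) had the smallest p on their sides of 0, and TANGO6 was the next below 0 (-0.021 ± 0.18). Of 14 genes for propeptide removal and crosslinking, 12 were above 0, the median was 0.28, and 1 was higher and 1 lower at that p, near the 9.23% and 7.73% of all genes. LOXL2, a lysyl oxidase that starts crosslinks, stood at 364, 342 and 218 CPM in the FNI libraries and 829, 444 and 453 CPM in the FNI+I-125 libraries, every FNI+I-125 library above FNI (0.90 ± 0.33). ADAMTS14, a procollagen peptidase, was at 1.81 ± 0.77, TLL1, which removes the other propeptide, at -0.67 ± 0.24 and PCOLCE2, an enhancer of that step, at -0.58 ± 0.26.

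Among 20 proteoglycans and glycoproteins of fibrils the median was 0.18, with 2 higher and 0 lower at an unadjusted p under 0.05, where 9.23% of all genes were higher. ASPN, a small leucine-rich proteoglycan that binds type I collagen, stood at 332, 342 and 160.4 CPM in the FNI libraries and 1408, 509 and 696 CPM in the FNI+I-125 libraries (1.65 ± 0.48). TNC, a matrix glycoprotein of wounds, stood at 449.7, 511 and 161 CPM in the FNI libraries and 1970.0, 712 and 1063 CPM in the FNI+I-125 libraries (1.74 ± 0.56). Both were above FNI in all 3 FNI+I-125 libraries, highest in replicate 1, while TNXB, which binds fibrils, was at -0.73 ± 0.34 and OMD at -1.09 ± 0.54. Among 15 laminins, nidogens and proteoglycans of basement membranes, 12 were below 0, the median was -0.42, and 0 were higher and 3 lower at that p, where 7.73% of all genes were lower. LAMA2, the laminin chain of Schwann cell and muscle basement membranes, stood at 409, 344 and 480.3 CPM in the FNI libraries and 168, 265 and 226 CPM in the FNI+I-125 libraries (-0.91 ± 0.22), and LAMB2 was at -0.75 ± 0.27, both lower in every FNI+I-125 library. LAMA2 and the sum of the Schwann cell markers were both highest in FNI replicate 3 and lowest in FNI+I-125 replicate 1, all 10 Schwann cell markers had log2 fold changes below 0, and their part in the values of this list was not tested. AGRN, a proteoglycan of nerve and muscle basement membranes, was at 0.18 ± 0.32.

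Among 10 collagen receptors the median was -0.21, with 1 higher and 0 lower at an unadjusted p under 0.05, near the 9.23% of all genes that were higher. ITGA11, the integrin chain by which fibroblasts bind fibrils, stood at 90.1, 72.1 and 56.4 CPM in the FNI libraries and 289.7, 126 and 158 CPM in the FNI+I-125 libraries, with no overlap (1.39 ± 0.36). ITGA10 was at -0.42 ± 0.19 and DDR2, a receptor kinase for fibrillar collagen, at -0.28 ± 0.17, and OSCAR, a receptor of osteoclasts and myeloid cells, was at 0 counts in 1 library of each group. All 7 collagen-cutting enzymes were above 0, with a median of 1.30 and 4 of them higher at an unadjusted p under 0.05, where 51.1% of all genes were above 0 and 9.23% higher at that p. MMP13, a collagenase, stood at 0.703, 2.96 and 0.355 CPM in the FNI libraries and 59.7, 27.4 and 82.7 CPM in the FNI+I-125 libraries (5.40 ± 0.90). MMP1, the interstitial collagenase, stood at 2.64, 24.3 and 0.532 CPM in the FNI libraries and 233, 249 and 329 CPM in the FNI+I-125 libraries (4.89 ± 1.34), and both had every FNI+I-125 library above every FNI library. DESeq2 called 4 genes of the 7 lists, all higher, where it called 1.69% of all genes higher. They were ASPN and TNC of the 20 genes of fibrils and MMP1 and MMP13 of the 7 enzymes.

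The remaining marker lists give the cell content beside these values. The 10 fibroblast markers, led by SFRP2, summed to 2646 to 3372 CPM in FNI and 2609 to 3587 CPM in FNI+I-125, with overlapping ranges, and TCF21 was at 0 in 5 libraries. The sum joins markers that went opposite ways: of the 9 tested, 4 had log2 fold changes above 0 and 5 below. Among them 1 was higher (SFRP2, 0.95) and 1 lower (CD34, -0.64) without overlap, where 14.8% of all genes were higher and 12.3% lower. At an unadjusted edgeR p under 0.05, 0 were higher and 2 lower, where 9.23% of all genes were higher and 7.73% lower. The 8 macrophage markers, led by CSF1R, summed to 201 to 810 CPM in FNI and 1106 to 1571 CPM in FNI+I-125 without overlap, and 6 of the 8 were singly higher without overlap, where 14.8% of all genes were. The 5 adipocyte markers, led by ADIPOQ, summed to 1342 to 3061 CPM and 906 to 1158 CPM. The muscle markers were led by ACTA1 and the gland markers by DNASE1. FNI+I-125 replicate 1, the library with the highest COL12A1, COL5A2 and COL5A3, and replicate 2, with the lowest COL12A1 of its group, both held high muscle markers (5113 and 4393 CPM), while replicate 3, with muscle markers at 14.7 CPM, had a COL12A1 level between the other two. The part of muscle in these collagen values was not tested.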

How the data were processed

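RNA-seq of 6 facial nerve libraries (3 FNI, 3 FNI+I-125) was analysed from the gene table of raw counts that the authors deposited. The libraries were made with a stranded mRNA kit, and the submitters' processing notes name HISAT2 and the rabbit build OryCun 2.0; the counting program, the annotation and use of strand are not given in the sources used here. Libraries held 16031151 to 16798012 counts, so 3 counts equal 0.179 to 0.187 CPM.

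Genes were filtered with filterByExpr (minimum count 10) and compared with edgeR 4.0.16 in R 4.3.3 (trimmed mean of M values scaling, quasi-likelihood test, Benjamini-Hochberg adjustment over all 14003 genes); a call needed an adjusted p under 0.05 and a log2 fold change of at least 1.5 in size. Standard errors are the log2 fold change over the square root of F. Single values were also tested as log2(CPM + 1) by exact permutation. DESeq2 1.42.0, limma-voom (limma 3.58.1) and other scalings, filters and left-out libraries were alternatives, and the scripts were tested on simulated data. The counts of chains at an unadjusted p by DESeq2, with a replicate block or with a library left out, and DESeq2 with a library left out, were chosen after seeing the data.

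Given in full were the 3 chains of each class with the highest mean CPM, the chains at an unadjusted p under 0.05 (at most 6 in each direction), the chains of the ratios, the 2 genes of each pathway list with the smallest p in each direction and the leading gene of each cell type list, apart from some genes that are not reported here. The members and lists were chosen with earlier results of these data known. Of 2992 rows named only by a LOC number, 542 were given symbols by matching the rabbit RefSeq table, which describes a different assembly; ITGAM in the macrophage list is such a row. P4HB, COLGALT1, MIA2, COMP, LAIR1, GP6 and MMP8 were not found among the rows of the pathway lists. The row for COL18A1 carries a LOC number and is outside the 42. Another 25 rows show a date in place of a gene name. The deposited table holds no transcript lengths, and no sequence was used.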

Additional observations from a re-analysis of the deposited data

How the results depend on the processing

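By DESeq2, 236 genes of all tested were called higher and 163 lower, among them 2 collagen chains and 4 pathway genes, all higher, where edgeR called 0. With the fold threshold but an unadjusted p under 0.05, edgeR counted 388 genes higher and 306 lower, 2 chains higher and 1 lower and 4 pathway genes higher. At an unadjusted p alone it counted 1293 and 1082 genes, 3 and 4 chains and 12 and 5 pathway genes. At that p DESeq2 had 5 of the 40 chains higher and 6 lower, where 1616 of all 14003 genes tested were higher and 1517 lower. The cause of the difference between the tools was not tested. With 1 library left out, edgeR called 0 to 38 genes higher and 0 to 2 lower over all genes, with the 38 and the 2 without FNI+I-125 replicate 3, and 0 chains. Chains at an unadjusted p numbered 0 to 5 higher and 2 to 5 lower, chains called by DESeq2 0 to 3 higher and 0 to 1 lower, and chains without overlap 3 to 8 higher and 6 to 6 lower. Without FNI replicate 1 no chain was higher at an unadjusted p, and without FNI+I-125 replicate 2 there were 5. For these counts of chains no share over all genes was computed with a library left out. The shares with all libraries do not serve as their background, since groups with fewer libraries separate more easily for any gene. The log2 CPM difference of the classes ran from 0.06 to 0.60 (fibrillar), -0.0030 to 0.47 (basement membrane), -0.066 to 0.52 (COL6), 0.21 to 1.00 (FACIT) and -0.14 to 0.36 (other). Without the chain with most counts in its class, the differences were 0.33, 0.24, 0.52, 0.96 and 0.05.

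Deviations from the group means correlated at 0.052, -0.19 and -0.14 between libraries with the same replicate number. In the other group, 0 of 6 libraries correlated best with their own number. Deviations from means of 3 libraries with uneven tissue markers cannot show whether the libraries were paired. With the number as a replicate block, edgeR called 0 chains, and at an unadjusted p 1 chain was higher (COL11A1) and 5 lower. The share of all genes at that p was not computed with the block. The block changed no other call.

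Of the log2 fold changes that changed sign, COL16A1 was -0.0030 by DESeq2, -0.025 by limma-voom, -0.044 by library size only, -0.027 by upper-quartile and -0.0030 by RLE scaling, -0.0047 with no filter, -0.0050 with 10 counts in every library, -0.029 with the block and -0.34 to 0.18 with a library left out. COL6A2 was 0.013 by limma-voom, 0.011 with the block and -0.32 to 0.14 with a library left out, and COL4A6 was -0.011, -0.033 and -0.48 to 0.63. With a library left out, COL1A2 ran from -0.068 to 0.49, COL6A1 from -0.055 to 0.44, COL15A1 from -0.22 to 0.12, COL4A5 from -0.72 to 0.12, TANGO6 from -0.13 to 0.055 and AGRN from -0.024 to 0.45. COL28A1 ran from -2.54 to -0.60. Without FNI+I-125 replicate 1, COL8A2 was 0.42, LOXL2 0.54, SEC23A 0.33 and SEC24D 0.24, and without FNI replicate 3, COL14A1 was 0.059, COL6A3 0.36 and OMD -0.70. The scalings moved the median over all genes from -0.029 to 0.013. The spread between replicates was 43.05% (edgeR's common coefficient of variation), with 3 libraries a group.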

Other observations

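COL18A1, the basement membrane chain whose end fragment is endostatin, is listed under a LOC number and took its name from the RefSeq gene table. It stood at 119, 104 and 67.7 CPM in the FNI libraries and 89.5, 81.9 and 94.3 CPM in the FNI+I-125 libraries (log2 fold change -0.13 ± 0.22, edgeR adjusted p = 0.769), and the groups overlapped.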
